A study of Mus musculus with 11 samples.

Results

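Promoter binding of ISL1 in Control endocrine cells of the mouse pancreas was compared with the levels of 2 histone marks, H3K27ac and H3K27me3, that the same promoters carried in Control cells at postnatal day 9 (P9). The ISL1 data list 22332 promoter windows, each with a value for the embryonic stage E14.5 and a value for P9. Of these windows, 10569 belonged to a gene that also had a promoter region in the data of either mark, 8610 with H3K27ac and 3092 with H3K27me3, and these were the members studied. The other 11763 windows belonged to genes with no listed promoter region of either mark and served as the reference. Windows of 6000 bp, which reach 3000 bp to each side of a gene start, numbered 19583. The 2749 wider windows had a median width of 7066 bp, and every one of them listed 2 or more genes. The widths were therefore kept apart, except in counts by gene list and over all windows.

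Control mice were Isl1loxP/+;Neurod1-cre, that is, heterozygous for the floxed Isl1 allele, and they also carried the Ai14 tdTomato reporter on a C57BL/6 background. Littermates of both sexes were used, and tdTomato+ cells were isolated by flow sorting. Each mark had 2 Control libraries, and per the series design each P9 library came from a pool of 3 to 4 pancreases and about 20000 cells. ISL1 had 1 library at P9, and 2 libraries at E14.5 that are given as 1 column. No level was computed from the 4 histone libraries of Isl1CKO mice (Isl1loxP/loxP;Neurod1-cre). Their counts did bear on which regions were listed, since each listed region had at least 50 counts over Control and Isl1CKO libraries together. Which promoters have a listed mark, and so the bins, are therefore not set by Control alone. 3 features limit these groups as a model: the cells are those in which Neurod1-cre was active, the Control cells can lose 1 Isl1 allele themselves, and animals were pooled. Both marks were measured at P9 only, so the E14.5 ISL1 values are set against chromatin of a later age. ISL1 signal in cells without ISL1 was not analysed here, so no background level of the ISL1 assay enters any value.

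ISL1 is a LIM-homeodomain transcription factor of endocrine progenitors and of mature islet cells, and it works with cofactors such as LDB1 to activate hormone and beta cell genes. H3K27ac marks active promoters and enhancers, whereas H3K27me3 is deposited by Polycomb repressive complexes over silenced developmental genes, often across broad domains that cover the whole promoter. In CUT&Tag an antibody tethers a transposase, which cuts and tags the DNA next to the bound protein or mark.

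The proximal promoters of 5 genes are printed first because their windows show the range of combinations that follow. Isl1 and Fev had high E14.5 ISL1 values with H3K27ac, Hoxa2 had ISL1 values at both stages with H3K27me3 alone, and Nodal and Osmr held the highest P9 values of all windows. Each sequence is the 250 bases upstream of the RefSeq start, 5′ to 3′ on the strand of the gene, with the homeodomain core TAAT or its reverse complement ATTA in capitals. On GRCm38.p6 they lie at chr13:116309689-116309938 (minus strand, Isl1), chr1:74885409-74885658 (minus strand, Fev), chr6:52164832-52165081 (minus strand, Hoxa2), chr10:61417722-61417971 (plus strand, Nodal) and chr15:6874314-6874563 (minus strand, Osmr).
Isl1: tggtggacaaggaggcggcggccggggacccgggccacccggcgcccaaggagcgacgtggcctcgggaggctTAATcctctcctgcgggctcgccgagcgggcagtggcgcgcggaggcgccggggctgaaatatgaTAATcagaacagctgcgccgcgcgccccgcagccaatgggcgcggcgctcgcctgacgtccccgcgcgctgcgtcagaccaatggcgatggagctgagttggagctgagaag
Fev: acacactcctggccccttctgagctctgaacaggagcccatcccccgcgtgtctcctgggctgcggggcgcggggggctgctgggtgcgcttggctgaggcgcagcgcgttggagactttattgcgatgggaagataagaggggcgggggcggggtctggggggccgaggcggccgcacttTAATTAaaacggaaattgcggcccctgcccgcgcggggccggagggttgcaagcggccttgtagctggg
Hoxa2: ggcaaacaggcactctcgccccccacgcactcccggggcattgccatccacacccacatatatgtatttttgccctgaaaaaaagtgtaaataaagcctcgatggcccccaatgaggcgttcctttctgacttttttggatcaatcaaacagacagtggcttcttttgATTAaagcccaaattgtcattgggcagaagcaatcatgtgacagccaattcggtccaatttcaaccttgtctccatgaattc
Nodal: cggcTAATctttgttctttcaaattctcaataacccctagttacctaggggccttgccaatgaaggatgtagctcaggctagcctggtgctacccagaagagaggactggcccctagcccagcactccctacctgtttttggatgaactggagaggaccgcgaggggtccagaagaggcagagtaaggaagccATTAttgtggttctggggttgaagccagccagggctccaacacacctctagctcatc
Osmr: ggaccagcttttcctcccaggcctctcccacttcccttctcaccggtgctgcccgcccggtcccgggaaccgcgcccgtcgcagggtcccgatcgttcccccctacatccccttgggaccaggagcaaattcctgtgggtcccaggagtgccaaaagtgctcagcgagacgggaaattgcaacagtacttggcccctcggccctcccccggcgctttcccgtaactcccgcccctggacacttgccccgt
The core, overlapping matches included, occurred 2 times upstream of Isl1, 2 times upstream of Fev, 1 time upstream of Hoxa2 and 2 times upstream of Nodal, and these letters did not occur upstream of Osmr. Of 32851 RefSeq promoters of the same length, 54.9% held the core on either strand. The longer sequence TAATGG, or CCATTA on the other strand, which contains the core, occurred 1 time upstream of Nodal and in 6.57% of all promoters. These matches describe the letters in a short stretch of each window and locate no bound site.

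ISL1 values were whole numbers whose unit the file does not state. They were sparse at P9, where 20354 windows had a value of 0 and the values summed to 2255, against 13906 windows at 0 and a sum of 16668 at E14.5. Of the positive windows, 89.5% had a value of exactly 1 at P9 and 51.4% at E14.5. The stages were therefore never compared in level, and a window with a value of at least 1 is called positive. The Control histone libraries held 1307049 and 1815511 counts in regions for H3K27ac, and 1202276 and 1750706 for H3K27me3. Levels are counts per 1000000 of these totals (CPM) over the whole region, averaged over the 2 libraries, for the promoter region of a gene with the highest such mean. Between the 2 libraries the CPM of the joined windows had a Spearman rho of 0.682 for H3K27ac and 0.913 for H3K27me3, across windows, and 47.2% and 70.8% of windows fell into the same of the 4 level bins by both libraries. Windows were ranked by level over all joined windows and cut into 4 bins of equal size, with boundaries at 21.3, 37.7 and 62.2 CPM for H3K27ac and 17.3, 55.9 and 172 CPM for H3K27me3.

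H3K27ac was listed at most beta cell, transcription factor and secretion genes of the islet, at fewer alpha and delta cell genes, and at few markers of most other cells. Of 23 windows of beta cell identity genes, 18 had an H3K27ac promoter region, with a median of 45.0 CPM, as did 16 of 26 windows of islet transcription factors and 21 of 28 of hormone secretion genes. It was listed for 6 of 12 windows of alpha cell genes, 3 of 11 of delta cell genes and 6 of 8 of PP and epsilon cell genes. Over all windows the share was 38.6%. Markers of other cells had an H3K27ac promoter region in 1 of 13 acinar, 1 of 10 endothelial, 1 of 12 mesenchymal, 1 of 9 immune, 1 of 7 glial and 5 of 12 ductal windows. Ins2 and Gcg, which encode insulin and glucagon, had no promoter region of either mark listed under their own identifiers. Sst, which encodes somatostatin, had H3K27me3 only. That no region is listed does not show that a mark was absent.

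The ISL1-positive share differed widely over H3K27ac at E14.5 and by a few percentage points at P9. Among 6000 bp windows, 8.33% of all were positive at P9 and 34.5% at E14.5. At P9 the share was 6.99% where no H3K27ac region was listed (854 of 12223), 10.5% in the lowest bin of Control H3K27ac (200 of 1900), 9.47% in the second, 10.0% in the third and 12.3% in the highest (218 of 1771). The highest bin exceeded the lowest by 1.78 percentage points, with a 95% interval of the difference of -0.274 to 3.85 (Newcombe, windows taken as draws), which includes 0. The P9 difference was 4.75 points (2.67 to 6.84) among genes without an H3K27me3 promoter region and 2.11 points (0.143 to 4.11) when regions were joined to windows by overlap, and both of these intervals lie above 0. At E14.5 the shares in the same order were 19.3%, 43.4%, 54.5%, 64.5% and 77.9%, and the highest bin exceeded the lowest by 34.4 points, with an interval of 31.5 to 37.3. Ranked by the first or the second Control library alone, the difference was 33.8 or 28.1 points at E14.5 and 1.46 or 1.92 points at P9. Ranked by CPM per kb of region instead of CPM per region, the E14.5 difference was 17.4 points and the P9 difference 0.126 points. Region length entered the ranking by CPM, and its part in the result was not tested beyond this value. The cells were profiled in bulk, so signal in more cells and more signal per cell cannot be told apart. No test over samples was possible, since each stage has a single column of ISL1 values, and the intervals cover counting error only.

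Over H3K27me3 the ISL1-positive share differed at both stages. At P9 the positive share was 6.77% where no H3K27me3 region was listed (1130 of 16691), 11.4% in the lowest bin of Control H3K27me3 (81 of 708), 12.6% in the second, 17.1% in the third and 28.2% in the highest (204 of 723). The highest bin exceeded the lowest by 16.8 points, with a 95% interval of 12.7 to 20.8, and by 16.2 or 16.3 points when windows were ranked by either Control library alone. By CPM per kb of region the P9 difference was 16.9 points, and among regions with at least 50 Control counts it was 19.5 points. At E14.5 the shares were 30.9%, 42.1%, 43.3%, 58.5% and 77.2%, a difference of 35.1 points with an interval of 30.2 to 39.7. At P9 the step was steepest at the top of the range. With the mark cut into 10 bins, the highest bin of H3K27me3 had a median of 573 CPM, and there 108 of 286 windows (37.8%) were positive at P9 and 85.7% at E14.5. The highest of 10 bins of H3K27ac, in comparison, held 13.5% positive windows at P9 and 83.7% at E14.5. With the stricter threshold of at least 2 at P9, which 0.827% of 6000 bp windows, 1.64% of wider ones and 0.927% of all met, 39 of 723 windows (5.39%) of the highest H3K27me3 bin were positive and 7 of 708 in the lowest.

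**Figure D1:**
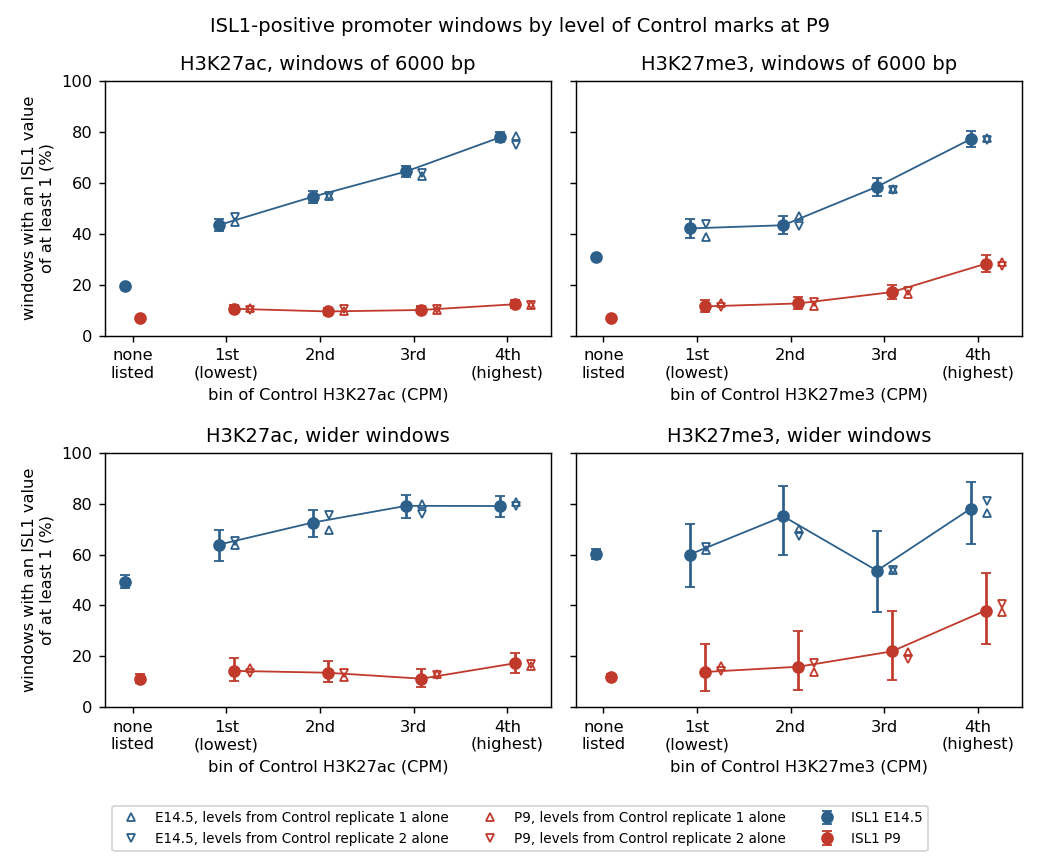
Share of windows with an ISL1 value of at least 1 (vertical axis, %) by bin of the Control level of each mark (horizontal axis, 4 CPM bins, with windows of genes without a listed region at the left), for 6000 bp and wider windows; circles are E14.5 (blue) and P9 (red) with exact 95% binomial intervals, and triangles show bins made from each Control library alone. The P9 share in 6000 bp windows lies between 9.47% and 12.3% over the H3K27ac bins and goes from 11.4% to 28.2% over the H3K27me3 bins.

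Viewed from the ISL1 side, 30.8% of the 1632 P9-positive windows of 6000 bp belonged to genes with an H3K27me3 promoter region, against 13.3% of the 17951 windows at 0. Where the mark was listed, its median level was 122 CPM in positive windows (127 and 117 in the 2 libraries) and 48.6 CPM in windows at 0 (50.7 and 45.7). The H3K27me3 regions were also broader, with a median width of 4334 bp against 2651 bp. For H3K27ac the P9 contrast was smaller: 47.7% against 36.7% of windows had a region, and the median levels were 39.0 and 36.8 CPM. At E14.5 the windows that were positive had an H3K27ac region in 65.1% of cases against 23.1%, with medians of 44.3 and 28.7 CPM. Level and breadth of H3K27me3 went together, with a median of 8.32 CPM in regions below 1000 bp and 295 CPM in those of 5000 bp or more. Of windows whose region was 5000 bp or longer, 28.6% were positive at P9, against 15.0% for 2000 to 5000 bp, 10.2% for 1000 to 2000 bp and 15.4% below 1000 bp. The P9 share was thus highest in the longest regions and showed no order below them. By number of genes listed in a window, the P9 shares from the lowest to the highest H3K27me3 bin were 10.7%, 10.9%, 17.7% and 28.6% with 1 gene. With 2 or more genes they were 12.9%, 16.8%, 15.2% and 27.2%. The highest bin thus held the highest P9 share in both sets, and the sets differed in no common direction across bins. At E14.5 the share was higher with 2 or more genes in each bin, for instance 51.4% against 40.1% in the second. The part of the number of genes in the result was not tested further.

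Since P9 values were the sparser, the stages were also set side by side, after the values had been seen, at thresholds that call a like share of windows, at least 1 at P9 and at least 3 at E14.5, which 7.41% of 6000 bp windows, 19.9% of wider ones and 8.96% of all met. Over H3K27me3, from the lowest to the highest bin, the E14.5 shares were 7.20%, 8.23%, 10.8% and 27.1%, so at both stages the highest bin stood well above the others. Over H3K27ac the E14.5 shares were 7.58%, 8.40%, 13.4% and 29.8%, where those at P9 lay between 9.47% and 12.3%. In windows without an H3K27ac region the share was 3.10% at E14.5 and 6.99% at P9. The difference between stages itself was not tested, and age, depth and the number of libraries cannot be told apart in it.

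**Figure D2:**
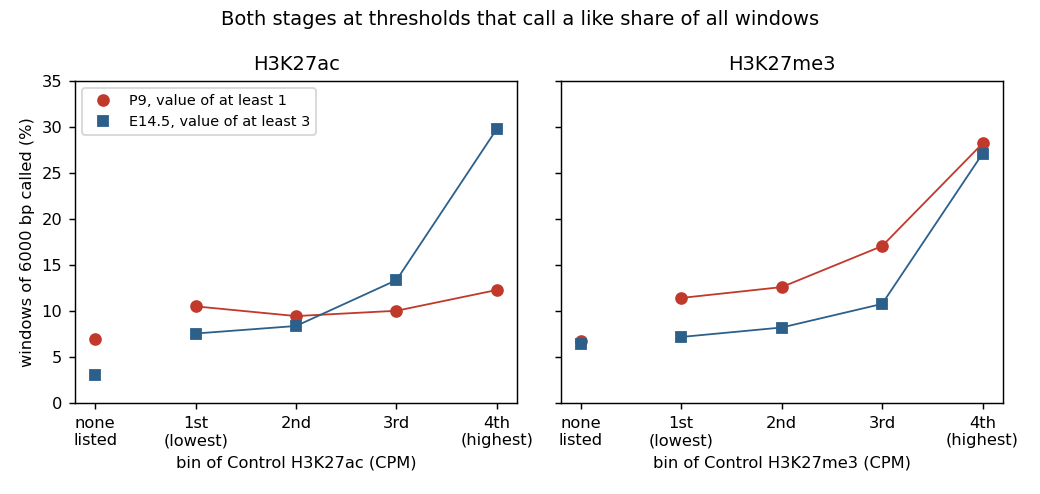
Share of 6000 bp windows called (vertical axis, %) by bin of Control H3K27ac (left) and H3K27me3 (right), with an ISL1 value of at least 1 at P9 (red circles) and of at least 3 at E14.5 (blue squares). In the highest bin of H3K27ac 29.8% of windows were called at E14.5 and 12.3% at P9, and in that of H3K27me3 27.1% and 28.2%.

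Both marks together gave 4 classes of 6000 bp windows. The 6299 windows with H3K27ac only were positive in 9.19% of cases at P9 and in 58.6% at E14.5. The 1061 windows with both marks were positive in 18.8% and 66.4%, the 1831 with H3K27me3 only in 16.5% and 48.9%, and the 10392 with neither in 5.30% and 14.1%. At P9, then, the classes with H3K27me3 held the higher shares, and at E14.5 the classes with H3K27ac did. Windows with both marks had lower levels of each. Their median H3K27ac was 20.7 and 24.8 CPM in the 2 libraries, against 42.8 and 36.4 CPM in H3K27ac-only windows. Their median H3K27me3 was 47.4 and 36.6 CPM, against 69.0 and 68.0 CPM in H3K27me3-only windows. H3K27me3-only windows were 9.35% of all windows, 13.3% of those positive at E14.5 and 18.6% of those positive at P9. H3K27ac-only windows were 32.2% of all windows, 54.7% of those positive at E14.5 and 35.5% of those positive at P9. Among windows with no H3K27me3 region, the P9 share was 7.36% in the lowest and 12.2% in the highest bin of H3K27ac. Among windows with no H3K27ac region, the P9 share was 10.4% in the lowest and 28.1% in the highest bin of H3K27me3. The same direction held within the lowest bin of H3K27ac, from 13.8% (15 of 109) to 27.9% (34 of 122). Within the second bin the share went from 5.19% (4 of 77) to 32.6% (14 of 43). In the upper bins of H3K27ac only 21 windows reached the highest H3K27me3 bin, too few to describe a share. Within the third bin the values went the other way, from 21.4% (12 of 56) to 17.6% (3 of 17).

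**Figure D3:**
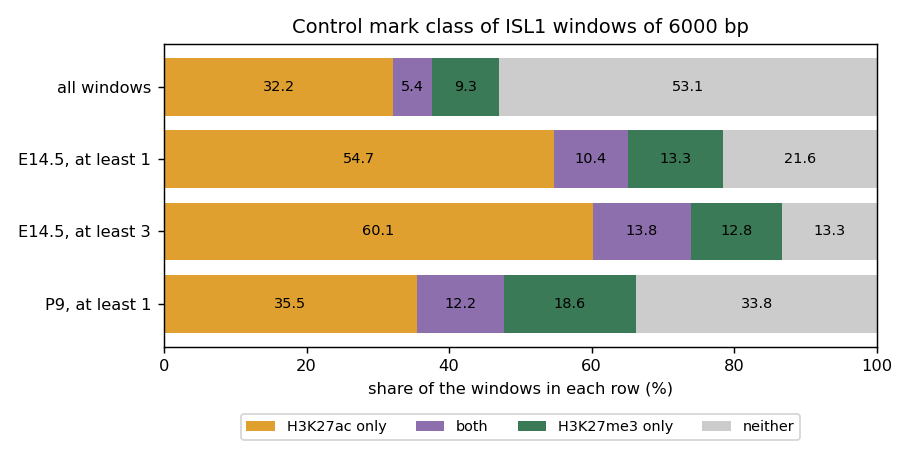
Composition by mark class (horizontal axis, % of windows) of all 6000 bp windows, of those with an E14.5 ISL1 value of at least 1 or at least 3, and of those with a P9 value of at least 1. H3K27ac-only windows make up 54.7% of the E14.5-positive windows and 35.5% of the P9-positive ones, while H3K27me3-only windows make up 13.3% and 18.6%.

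**Figure D4:**
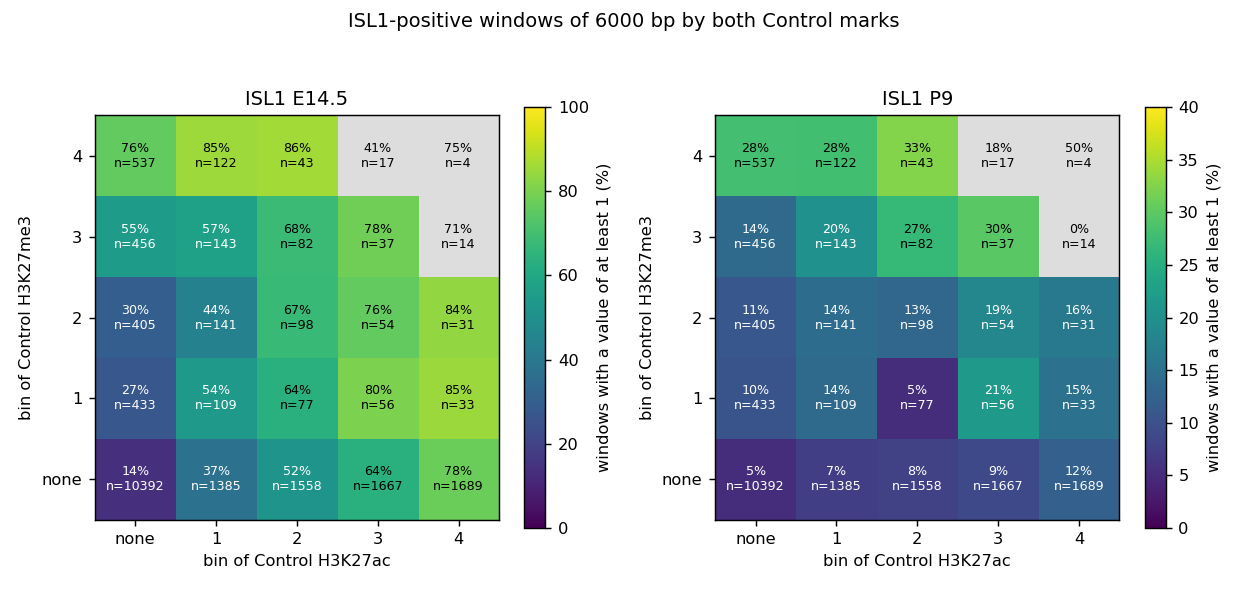
Share of 6000 bp windows with an ISL1 value of at least 1 at E14.5 (left) and at P9 (right, on a shorter colour scale) by bin of Control H3K27ac (horizontal) and of Control H3K27me3 (vertical), with the number of windows in each cell; cells with fewer than 20 windows are grey. At E14.5 the share is higher along H3K27ac in the lower H3K27me3 bins, and along H3K27me3 mainly where H3K27ac is absent or low; at P9 it is higher along H3K27me3 where H3K27ac is absent or in its lowest bins.

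Windows positive at P9 overlapped in part with those positive at E14.5. Of the P9-positive windows of 6000 bp, 809 were also positive at E14.5 and 823 were not, so 49.6% were positive at E14.5, against 33.1% of the windows at 0 at P9. The shared windows were 12.0% of the 6755 that were positive at E14.5. In H3K27me3-only windows the P9 share was higher at higher E14.5 values: 12.1% at an E14.5 value of 0, 17.3% at 1, 22.8% at 2 and 29.6% at 3 or more. In H3K27ac-only windows the same series was 8.56%, 9.02%, 10.2% and 10.3%. Within the highest H3K27me3 bin the P9 share showed no such order, at 27.3%, 28.8%, 26.0% and 30.1%. Across chromosomes with at least 20 windows in that bin, its P9 share lay between 14.8% on chromosome 17 (4 of 27) and 47.1% on chromosome 15 (16 of 34). Over all 6000 bp windows the P9 share was 9.46% on chromosome 17, 12.7% on chromosome 15 and 8.33% on all chromosomes.

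Transcription factors of the islet had the highest E14.5-positive share of the 20 gene lists, 25 of 26 windows, and 10 of 26 were positive at P9, where 8.86% of all windows were positive at P9 and 37.7% at E14.5. The median value of the list was 2 at E14.5 and 0 at P9, beside a median of 0 over all windows at both stages. For single genes the ISL1 value is given for E14.5 and then P9, and the CPM for the first and then the second Control library. The Isl1 window itself (chr13:116443226-116449225 on GRCm39) had an ISL1 value of 9 at E14.5 and 0 at P9, with an H3K27ac level of 62.7 and 43.0 CPM in the 2 Control libraries and no H3K27me3 region. Nkx2-2, a homeodomain factor of beta cell specification, had values of 7 and 1, with 155 and 104 CPM of H3K27ac. Nkx6-1, which maintains beta cell identity, had 5 and 1, with 112 and 105 CPM. Neurod1, the bHLH factor whose promoter drives the Cre of these mice, had 2 at both stages in a window of 6034 bp, with 71.9 and 84.3 CPM of H3K27ac. Foxa2, a pioneer factor of the endoderm, also had 2 at both stages, with 164 and 75.5 CPM.

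Several core factors were positive at E14.5 and at 0 at P9. Pax6, required for islet hormone genes, had 6 and 0 with 241 and 229 CPM of H3K27ac and 5.82 and 2.28 CPM of H3K27me3. Insm1, a zinc finger factor of endocrine differentiation, had 7 and 0 with 120 and 60.0 CPM. Pdx1, which directs pancreas formation and insulin expression, had 4 and 0 with 86.5 and 89.2 CPM of H3K27ac and a lower level of H3K27me3, 49.9 and 25.1 CPM. Rfx6, needed for endocrine differentiation, had 1 and 0 with 115 and 71.1 CPM. Mafa (chr15:75617078-75623077 on GRCm39), an activator of insulin transcription in mature beta cells, had 6 and 0, with H3K27ac at 29.1 and 47.9 CPM beside H3K27me3 at 874 and 652 CPM. Whether both marks lay in the same cells cannot be told from bulk libraries. Pax4, an endocrine lineage factor, had 1 and 0 with 8.32 and 8.57 CPM of H3K27me3.

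Genes of beta cell identity had H3K27ac in 18 of 23 windows, and their ISL1-positive shares were above those of all windows, at 60.9% against 37.7% at E14.5 and 17.4% against 8.86% at P9. Of the 23 beta identity windows, 14 were positive at E14.5 and 4 at P9, namely Cd24a, Nkx2-2, Nkx6-1 and Mnx1. Kcnj11 and Abcc8, the subunits of the ATP-sensitive potassium channel, each had 3 at E14.5 and 0 at P9. Their H3K27ac was 187 and 155 CPM for Kcnj11 and 95.6 and 87.0 CPM for Abcc8, and their H3K27me3 differed widely between the libraries, at 143 and 1.71 CPM for Kcnj11 and 43.3 and 4.57 CPM for Abcc8. Slc2a2, the glucose transporter GLUT2, had 1 and 0, and Slc30a8, the zinc transporter of insulin granules, had 0 at both stages. Glp1r, the incretin receptor, was at 0 at both stages, with H3K27ac at 88.7 and 131 CPM and H3K27me3 at 162 and 70.8 CPM. Ucn3, a peptide of mature beta cells, and Ins1 were at 0 at both stages with 18.4 and 20.9 CPM and 5.36 and 25.3 CPM of H3K27ac. Cd24a, a surface glycoprotein, had the highest P9 value of this list, 2, with 1 at E14.5 and both marks listed.

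Hormone genes of the other islet cells had values of 0 or 1. Gcg had 0 at both stages. Sst had 1 at E14.5 and 0 at P9, with 99.8 and 114 CPM of H3K27me3. Ppy, which encodes pancreatic polypeptide, had 0 and 1, with 16.1 and 35.3 CPM of H3K27ac. Ghrl, which encodes ghrelin, also had 0 and 1, in a window of 7296 bp, so both were positive at P9. Among genes of hormone secretion, 17 of 28 windows were positive at E14.5 and 1 of 28 at P9, that of Pcsk1n, an inhibitor of prohormone convertase. Over all windows the shares were 37.7% and 8.86%. Chga, which encodes the granule protein chromogranin A, had 5 and 0 with 128 and 58.9 CPM of H3K27ac. Vamp2 and Syt7, which act in granule fusion, were at 0 at both stages with mean H3K27ac of 171 and 138 CPM.

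Genes of the endocrine progenitor included the highest E14.5 value of any list member. Fev, an ETS factor that marks progenitors about to differentiate, had 14 at E14.5 and 2 at P9, with 71.2 and 65.5 CPM of H3K27ac and with 8.32 and 82.8 CPM of H3K27me3. Of 16 progenitor windows 12 were positive at E14.5 and 2 at P9, beside 37.7% and 8.86% of all windows. Neurog3, which initiates the endocrine program, had 1 and 0 with both marks listed.

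Developmental genes under Polycomb control were positive at P9 in 16 of 48 windows and at E14.5 in 40 of 48, beside 8.86% and 37.7% of all windows. H3K27me3 was listed for 33 of them, with a median of 477 CPM, and H3K27ac for 2, beside 13.8% and 38.6% of all windows. In the highest H3K27me3 bin this list had 26 windows of 6000 bp, of which 9 were positive at P9 and 22 at E14.5, beside 204 and 558 of all 723 such windows. Hoxa2, a Hox gene of hindbrain patterning, had 7 at E14.5 and 2 at P9, with 190 and 267 CPM of H3K27me3. Pax9, a paired-box factor of pharyngeal development, had 4 and 2 with 854 and 897 CPM. Gsc, the organizer homeobox gene goosecoid, had 0 and 2 with 697 and 764 CPM. Other members with like levels were at 0 at P9: Barx1, a homeobox gene of the stomach mesenchyme, had 1 and 0 with 1483 and 1500 CPM, Hoxa9 had 4 and 0 with 373 and 440 CPM, and Pax3 had 0 and 0 with 406 and 398 CPM. Genes of this list with high H3K27me3 therefore had P9 values from 0 to 2.

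ISL1's own family and cofactors were positive in 13 of 18 windows at E14.5 and 4 of 18 at P9, beside 37.7% and 8.86% of all windows. The P9-positive windows were those of Lmx1b with 2, and of Lmx1a, Lhx2 and Ssbp2 with 1 each. Lmx1a and Lhx2, LIM-homeodomain factors of neural development, had H3K27me3 at 625 and 711 CPM and at 452 and 502 CPM. Ldb1, the LIM-domain binding partner of ISL1, had 1 and 0 in a window of 6328 bp with neither mark under its own identifier. Isl2 had 2 and 0 with 893 and 821 CPM of H3K27me3. Neuronal genes were positive in 14 of 19 windows at E14.5 and 4 of 19 at P9. H3K27me3 was listed for 13 of 19, beside 13.8% of all windows. Neurog2, a proneural factor, had 2 at both stages with 566 and 664 CPM, and Prph, the neuronal intermediate filament peripherin, had 0 and 2 with 580 and 469 CPM.

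Housekeeping genes and markers of other cells completed the lists. For comparison, 37.7% of all windows were positive at E14.5 and 8.86% at P9, and 38.6% had an H3K27ac and 13.8% an H3K27me3 region. Ribosomal protein genes had H3K27ac in 13 of 19 windows and H3K27me3 in 0, and were positive in 15 of 19 at E14.5 and 3 of 19 at P9. Acinar genes, with 1 window of 13 carrying H3K27ac, were positive in 4 at E14.5 and 0 at P9, and immune genes in 1 and 0 of 9. Endothelial genes were positive in 4 and 3 of 10, and the highest P9 value among them was 3, at Flt1, a VEGF receptor gene with a mean of 502 CPM of H3K27me3. Positive windows at E14.5 and P9 numbered 6 and 3 of 12 for alpha cell genes and 4 and 3 of 8 for PP and epsilon cell genes. They numbered 4 and 1 of 11 for delta cell genes, where Nrg1 has 2 identifiers and a window for each. Genes listed as disallowed in beta cells had H3K27ac in 13 of 24 windows and H3K27me3 in 14. Of these 24 windows, 15 were positive at E14.5 and 4 at P9. Cell cycle genes had 10 and 2 of 18, and genes of protein folding and stress in the endoplasmic reticulum 11 and 1 of 18. Ductal genes had 8 and 2 of 12, mesenchymal genes 5 and 2 of 12, and glial genes 3 and 2 of 7. The lists are small, so a share moves by several points with a single window. They also pool both widths: 13 of 19 ribosomal and 38 of 48 Polycomb windows were of 6000 bp. Wider windows were positive in 60.8% of cases at E14.5 and 12.6% at P9, against 34.5% and 8.33% of 6000 bp windows.

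**Figure D5:**
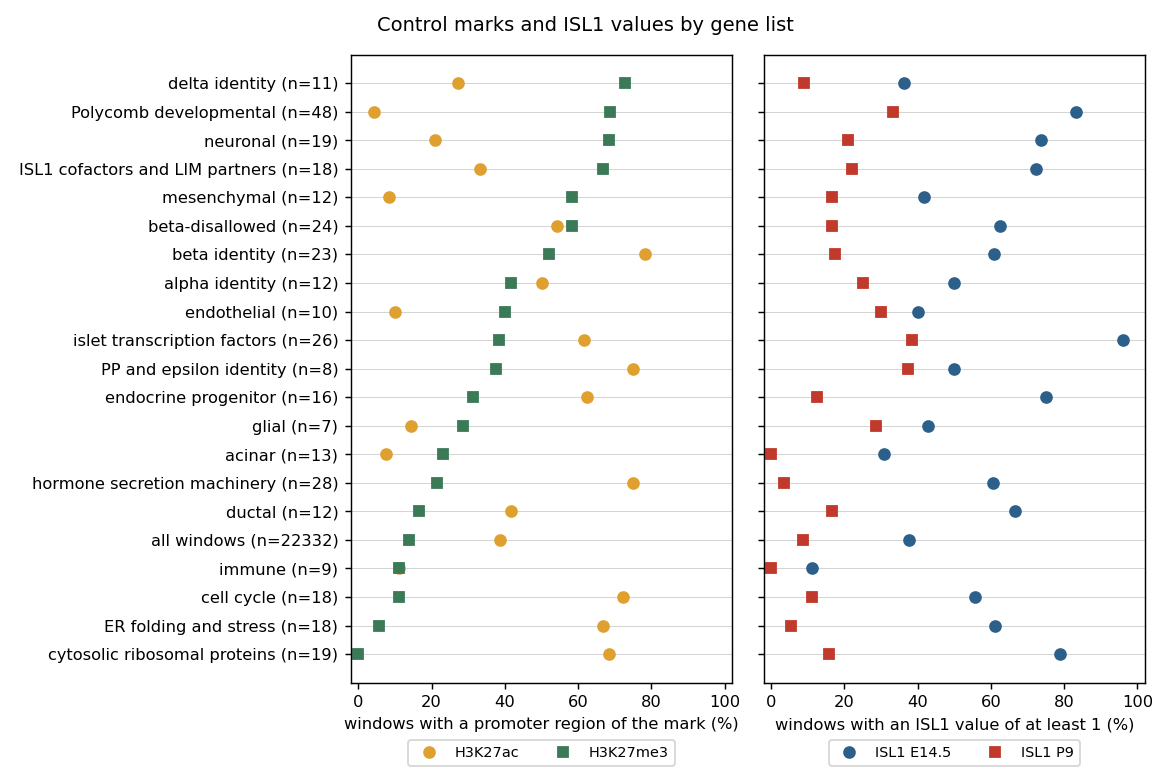
For each gene list (number of windows in parentheses), the share of windows with a Control promoter region of H3K27ac or H3K27me3 (left, %) and the share with an ISL1 value of at least 1 at E14.5 or P9 (right, %), ordered by the H3K27me3 share. Polycomb developmental genes (16 of 48) and islet transcription factors (10 of 26) are among the 16 of 20 lists above the 8.86% of all windows at P9, and acinar and immune genes lie at 0.

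The highest P9 values fell on windows with and without marks. Osmr (chr15:6901451-6907450 on GRCm39), the oncostatin M receptor gene, had 1 at E14.5 and 8 at P9, with H3K27me3 at 80.7 and 113 CPM and an H3K27ac level that differed between libraries, 0.765 and 36.9 CPM. Nodal (chr10:61250752-61256751), a TGF-beta family ligand of early patterning, had 1 and 7, with H3K27me3 at 226 and 335 CPM. Mtpap, a mitochondrial poly(A) polymerase gene, had 1 and 6, with H3K27ac at 34.4 and 31.9 CPM. Mlph, which encodes the melanosome transport protein melanophilin, had 0 and 6 with both marks, H3K27ac at 6.89 and 19.8 CPM and H3K27me3 at a mean of 24.5 CPM. Ct47, on chromosome X, had 0 and 6 with neither mark under its own identifier. The highest E14.5 values were those of Hinfp with 133, Cyb5r3 with 66, Bcar3 with 46 and Smdt1 with 33, whose P9 values were 0, 0, 2 and 0. Cyb5r3, Bcar3 and Smdt1 had neither mark under their own identifiers, in windows that list 3, 4 and 3 genes. The 4 windows with the highest E14.5 values were chosen after their values were seen.

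High marks also occurred without ISL1 values. Plxnb2, a plexin receptor gene, had the highest H3K27ac of all 6000 bp windows, 443 and 313 CPM, and Ninj1, a membrane protein gene, had 396 and 233 CPM, and both had ISL1 values of 0 at both stages. Of the 10 windows of 6000 bp with the highest H3K27ac, 0 were positive at P9. Of the 10 with the highest H3K27me3, 5 were positive at P9, each with a value of 1: Lbx1, Prdm12, Nkx1-1, Cilp2 and Tlx1. The P9 share was 8.33% of all 6000 bp windows. It was 13.5% in the highest of 10 bins of H3K27ac and 37.8% in that of H3K27me3. Sets of 10 windows are too small to describe a share. Tnfrsf25, a TNF receptor gene, and Lhx9, a LIM-homeodomain gene, had 0 at both stages with H3K27me3 of 1411 and 1092 CPM and of 909 and 994 CPM.

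Of the wider windows, 12.6% were positive at P9, and only 200 had an H3K27me3 region. Over H3K27me3 the P9 shares from the lowest to the highest bin were 13.8% (9 of 65), 15.9% (7 of 44), 22.0% (9 of 41) and 38.0% (19 of 50), a difference of 24.2 points with a 95% interval of 8.16 to 39.4. It was 10.3 points, with an interval of -1.57 to 21.6 that includes 0, when promoter regions of any gene in the window were counted. Over H3K27ac the P9 shares were 14.3%, 13.6%, 11.2% and 17.3%, a difference of 2.99 points with an interval of -2.97 to 8.58, and its sign turned to -0.287 points for values of at least 2, to -0.158 with at least 50 Control counts, and to -0.795 by overlap. At E14.5, where 60.8% of wider windows were positive, the share was 63.9% in the lowest and 79.1% in the highest H3K27ac bin, 15.2 points apart with an interval of 8.01 to 22.3, and 7.77 points apart by CPM per kb. With values of at least 2, which 35.9% of wider and 15.9% of 6000 bp windows had at E14.5 (18.3% of all), the wider H3K27ac difference was 26.4 points. For H3K27me3 the E14.5 shares lay between 53.7% and 78.0%, with no order across bins, and the highest bin exceeded the lowest by 18.0 points with an interval of 0.768 to 33.3. That interval included 0 without Control replicate 2 (14.7 points), by CPM per kb (11.4), with the region nearest to the start (11.3), with the sum over regions (15.1) and with at least 50 Control counts (11.4), and by overlap the difference was 31.2 points (19.1 to 42.1). Ihh and Dhh, which encode Hedgehog ligands, had P9 values among the highest of their mark classes in wider windows, Ihh in the class with both marks and Dhh in that with neither. Ihh had 5 at E14.5 and 2 at P9 with H3K27me3 at 719 and 757 CPM, and Dhh had 2 and 4 with neither mark under its own identifier. Of the wider windows without a mark of their own gene, 54.7% overlapped an H3K27ac promoter region of another gene, against 6.36% of such 6000 bp windows.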

How the data were processed

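CUT&Tag was done on sorted tdTomato+ Control endocrine cells. Per the submitters' processing notes, the tools were MACS2 2.2.6, edgeR 4.0.16, Bowtie2 2.3.5.1, ChIPseeker 1.38.0 and Picard 2.27.4, with GRCm39. The authors deposited raw counts per histone region, and every listed region had at least 50 counts over its 4 libraries, Isl1CKO included, so which promoters are listed is not set by Control alone. The deposited ISL1 file holds other values, whole numbers per promoter window and stage, with no unit stated; no depth, interval on a value or floor was derived from them. Per-sample columns not used numbered 0. Chromosome numbers of the histone files follow alphabetical order and were relabelled: 7.48% of H3K27ac and 9.25% of H3K27me3 labels equalled the ISL1 file as written and 100% afterwards.

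Histone promoter regions were joined to windows by gene identifier, scaled to CPM by the Control library totals, averaged over 2 libraries and ranked into 4 equal bins. Of genes with a promoter region, 3965 for H3K27ac and 1855 for H3K27me3 had no window of their own. Shares have exact Clopper-Pearson intervals and differences of shares Newcombe intervals, both at 95% and for counting error only. No test over samples was possible, so no p-value is given. The scripts (Python 3.11.15; R 4.3.3 with edgeR 4.0.16 and DESeq2 1.42.0 for scaling) were tested on simulated data. Groups came from the sample labels. Genes named are a fixed set of islet and developmental genes, the 4 (wider windows: 2) highest P9 values of each mark class, the 3 highest windows of each mark at 0 at both stages, and the highest and lowest 2 members of each of 20 lists, not all printed; others, such as the members counted beside a list, were chosen after their values were seen. Members and lists were chosen with earlier results of these data known. RefSeq promoters (GRCm38.p6) matched 62.3% of windows by symbol, so any comparison of base composition or motifs between classes would be void and none was made.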

Additional observations from a re-analysis of the deposited data

How the results depend on the processing

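Differences are highest minus lowest bin, in percentage points; shares are in percent, with classes in the order H3K27ac only, both, H3K27me3 only, neither. Of 156 recomputed values, 106 stayed within the interval of the reported one and 50 did not; 0 of the differences reported with an interval above 0 turned sign, while the wider H3K27ac difference at P9, whose interval includes 0, did. TMM factors, DESeq2 size factors, the region nearest to the start and the sum over regions moved none of them past that interval. Intervals changed sides of 0 in 3 differences: H3K27ac at P9 in 6000 bp windows, and H3K27me3 at P9 and E14.5 in wider ones, each with its values in the report.

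Left out in turn, the 2 Control libraries gave 28.1 to 33.8 for H3K27ac in 6000 bp windows at E14.5 (28.1 without replicate 1) and moved no other difference. By CPM per kb the H3K27ac differences at E14.5 were 17.4 (6000 bp) and 7.77 (wider). With 10 bins in 6000 bp windows, H3K27ac gave 40.7 at E14.5, and H3K27me3 gave 24.0 at P9 and 47.0 at E14.5. Among genes without the other mark, H3K27ac gave 4.75 at P9 and 39.1 at E14.5, and H3K27me3 gave 50.4 at E14.5. With at least 50 Control counts, E14.5 differences were 29.1 for H3K27ac and 40.2 for H3K27me3, E14.5 class shares 62.0, 70.4, 55.8 and 16.2, and the P9 share of H3K27me3-only windows 18.8.

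With ISL1 values of at least 2, the H3K27me3 difference at P9 was 4.41 and the wider H3K27ac difference at E14.5 26.4. Class shares were then 0.810, 2.54, 2.73 and 0.327 at P9 and 29.6, 35.3, 22.1 and 4.49 at E14.5 in 6000 bp windows, and 1.78, 4.17, 7.03 and 0.875 and 44.6, 54.2, 32.8 and 27.7 in wider ones. Stricter thresholds call fewer windows by construction.

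2 alternatives were chosen after seeing the data. At an E14.5 value of at least 3, differences in 6000 bp windows were 22.2 for H3K27ac and 19.9 for H3K27me3, and class shares 13.9, 18.9, 10.2 and 1.86, or 25.7, 26.4, 22.7 and 14.4 in wider windows. With regions of any gene joined by overlap, the wider H3K27ac difference at E14.5 was 23.1, the neither class 4.76 at P9 and 9.82 at E14.5, or 8.08 and 17.9 in wider windows, and the wider H3K27ac-only class 11.8 at P9. For all other moved values the cause was not tested. Leaving out overlapping windows was not run, since 0 windows overlap. No paired analysis was possible because ISL1 has 1 column per stage and no genotypes are compared. The sparse P9 column limits single genes: a value of 1 or 0 there separates few windows.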
